A study of Homo sapiens with 12 samples.

Results

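The Eph receptors and ephrins described here are 10 genes: the B-class receptors EPHB2, EPHB3, EPHB4 and EPHB6, the A-class receptors EPHA1, EPHA2 and EPHA4, and the ephrins EFNA1, EFNB1 and EFNB2. They were chosen by gene symbol, with earlier results of these data known, so counts of calls among them describe a chosen list. They are 10 of 56104 gene IDs in the tables, and all 10 passed the filter on low counts in both assays. The cells were HCT116, a human colorectal carcinoma line at passages under 15, either with a knockout of PPM1G (KO) or as controls (Ctrl, titled Ctrl_KO in the labels). The RNA was sequenced as nascent RNA by 4sU-seq, which gives cells 4-thiouridine for 10 min (500 µM), biotinylates 300 µg of RNA and recovers the RNA made in that time on beads, and as steady-state RNA by RNA-seq. Each assay held 3 Ctrl and 3 KO libraries, 12 in all, every one with ERCC spike-in RNA. The labels name no other treatment, and do not say whether the KO cells are 1 clone, which site was edited or what a Ctrl_KO cell carries. They call the 4sU-seq samples biological replicates but do not describe the RNA-seq cultures, so those p-values measure the spread between libraries, which may be technical.

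Eph receptors are receptor tyrosine kinases, and ephrins, their ligands, are held on the surface of neighbouring cells, A ephrins by a lipid anchor and B ephrins by a membrane span. A-class receptors mainly bind A ephrins and B-class receptors B ephrins, with EPHA4 an exception that binds both, and a contact can signal into the receptor cell (forward) and into the ephrin cell (reverse). In the intestine EPHB2 and EPHB3 are known as targets of WNT and beta-catenin signalling that are high at the crypt base, while B ephrins increase toward the differentiated cells, and the opposing gradients help to position cells.

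PPM1G, the gene for a nuclear metal-dependent serine/threonine phosphatase, was lower in the KO libraries of both assays. In 4sU-seq it stood at 242, 271 and 235 CPM (counts scaled to a common library size with TMM factors) in Ctrl replicates 1, 2 and 3 and at 98.9, 144 and 104 CPM in KO. In RNA-seq it stood at 326, 293 and 331 CPM in Ctrl and 97.8, 94.9 and 97.9 CPM in KO. The groups did not overlap, and the log2 changes were −1.11 ± 0.17 and −1.71 ± 0.06 (edgeR, adjusted p = 0.00717 and 1.77e-10). Here and below, a log2 change is KO over Ctrl with its standard error, n = 3 libraries per group, and a gene was called at an adjusted p under 0.05. Under scaling to the spike-in, PPM1G in 4sU-seq changed by −0.93 with adjusted p = 0.196.

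Gene counts per library ran from 79403238 to 101884166 in 4sU-seq and from 30962756 to 42479828 in RNA-seq. The floor of detection, 3 counts, is at most 0.0378 CPM in the former and 0.0969 CPM in the latter (counting error only). KO replicate 2 of 4sU-seq stood apart from the other KO libraries. Its counts differed from those of KO replicates 1 and 3 with a chi-square per degree of freedom of 303 and 400, against 31.4 between replicates 1 and 3. It was the highest of the 3 KO libraries for 8 of the 10 genes and the lowest for EPHA4 and EFNB2, so 4sU-seq results are given with and without it where it changes them. KO replicates 1 and 2 of RNA-seq were nearer to each other than any other RNA-seq pair of a group (chi-square per degree of freedom 1.71, against 10.5 to 19.0), though beyond sampling noise, and were kept as separate libraries. The 8 epithelial markers summed to 1358 to 1672 CPM in Ctrl and 1215 to 2061 in KO libraries of 4sU-seq. In RNA-seq they summed to 2782 to 3184 and 2596 to 2707, with CDX1 at 0 in both groups. Of 7 tested in 4sU-seq, CDH1 was the 1 called, higher in KO (12.6% of all genes tested rose). In RNA-seq 1 of 6 tested rose, CDH1, and 3 fell, KRT18, KRT19 and CDX2 (21.5% and 26.8% of all genes tested). The 5 leukocyte markers summed to 0.158 to 0.217 CPM in Ctrl and 0.336 to 0.362 in KO of 4sU-seq. In RNA-seq these sums were 0.149 to 0.227 and 0.355 to 0.436, with CD3E at 0 in both groups. The 7 fibroblast and endothelial markers summed to 10.8 to 12.5 CPM in Ctrl and 22.3 to 26.5 in KO of 4sU-seq. There 5 of 5 tested rose (12.6% of all genes tested), CDH5 from a Ctrl mean of 0.0571 CPM, near the floor. In RNA-seq the 7 markers summed to 4.44 to 6.69 and 10.2 to 11.6, and the 1 tested, COL1A1, rose (21.5% of all genes tested). PDGFRA was at 0 in both groups of 4sU-seq. The part of these markers in the results was not tested.

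In steady-state RNA all 10 genes were called, 6 higher and 4 lower in KO, where 48.4% of the 20415 genes tested were called (21.5% higher and 26.8% lower). EPHB2, EPHB3, EPHB6, EPHA1, EFNA1 and EFNB1 rose, and EPHA4, EFNB2, EPHA2 and EPHB4 fell. Their KO and Ctrl libraries did not overlap for any of the 10, which held for 56.1% of all genes tested. In nascent RNA 4 of the 10 were called against 19.6% of 21236 genes (12.6% higher and 6.98% lower): EPHB2 and EPHB3 rose, and EPHA4 and EFNB2 fell. The groups did not overlap for those 4 and for EPHA1 (38.4% of all genes). The median log2 change of the 10 was 0.23 in nascent RNA and 0.33 in steady-state RNA, beside 0.050 and 0.0014 over all genes tested. The 4 genes called in nascent RNA were called in the same direction in steady-state RNA, which held for 13.7% of the 15863 genes tested in both. The other 6 genes were called in steady-state RNA only, as were 40.8% of those tested in both. In a bulk sample, fewer cells that express a gene and less RNA of it per cell cannot be told apart.

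**Figure D1:**
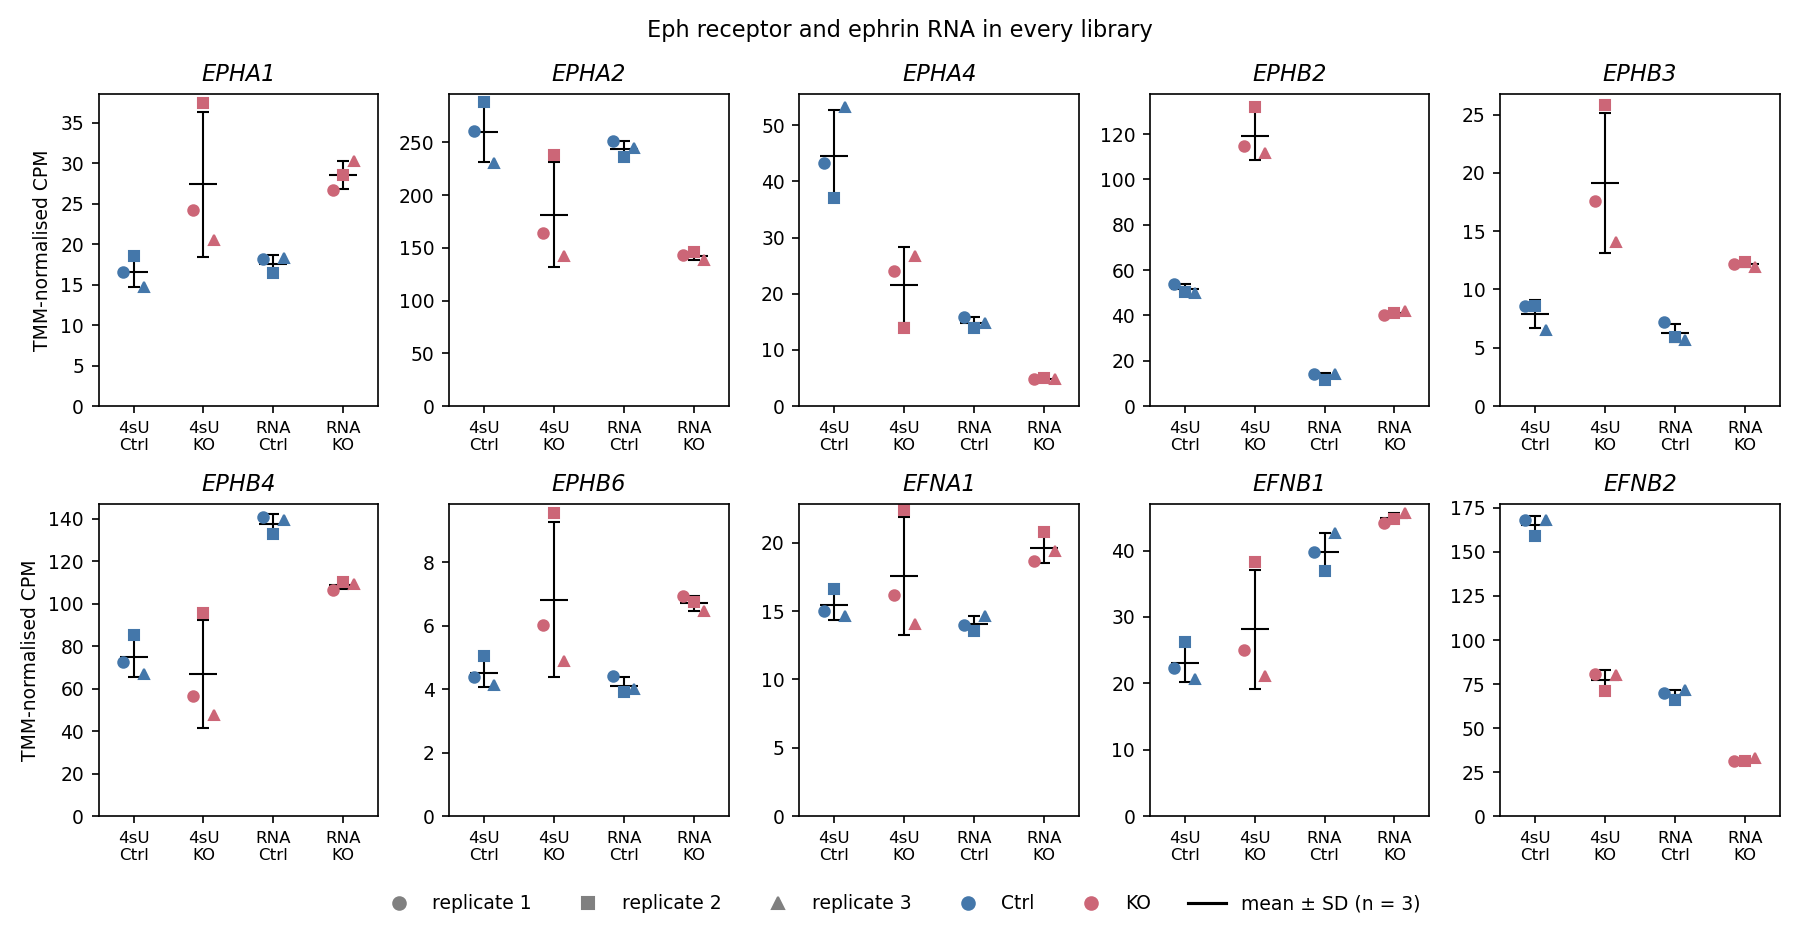
TMM-normalised CPM (y axes, linear from 0) of the 10 genes in every 4sU-seq and RNA-seq library of Ctrl (blue) and KO (red); the marker shape gives the replicate number, and the bars are mean ± SD (n = 3). In RNA-seq the groups were apart for all 10 genes, and in 4sU-seq KO replicate 2 (square) was the highest or lowest KO library for each gene.

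Scaling bears on directions. In 4sU-seq 64.4% of all calls were higher in KO, against 93.9% of the 716 calls made with spike-in scaling and 78.3% with library size alone. The median over all genes, 0.050, became 0.27 with spike-in scaling. In RNA-seq 44.6% were higher, against 61.6% with spike-in scaling and 72.4% with library size alone, where the median over all genes was 0.19. Each of the 10 genes kept its sign in each assay under both, and under the size factors of DESeq2. Spike-in scaling left 1 of the 10 called in 4sU-seq, EPHB3 (3.37% of all genes), and 9 in RNA-seq (34.8%). The spike-in share of gene counts was itself uneven, at 0.0324, 0.0560 and 0.0230% in KO replicates 1, 2 and 3 of 4sU-seq. Its part in the lost calls was not tested.

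The promoters of the 4 genes called in both assays are shown because these genes changed at both RNA levels. Each is the 250 bases before the RefSeq start on GRCh38.p14, read 5′ to 3′ on the gene's strand; EPHB2 and EPHA4 have 2 listed starts, and the one at the start of the GENCODE 29 gene is given. Capitals mark matches on either strand to 6 motifs.
EPHB2 promoter, chr1:22710589-22710838 (plus strand): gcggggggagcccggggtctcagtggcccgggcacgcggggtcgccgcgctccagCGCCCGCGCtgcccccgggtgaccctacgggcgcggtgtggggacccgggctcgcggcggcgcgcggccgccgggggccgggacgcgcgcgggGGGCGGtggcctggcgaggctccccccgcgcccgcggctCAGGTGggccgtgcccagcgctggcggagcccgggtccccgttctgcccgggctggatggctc
EPHB3 promoter, chr3:184561535-184561784 (plus strand): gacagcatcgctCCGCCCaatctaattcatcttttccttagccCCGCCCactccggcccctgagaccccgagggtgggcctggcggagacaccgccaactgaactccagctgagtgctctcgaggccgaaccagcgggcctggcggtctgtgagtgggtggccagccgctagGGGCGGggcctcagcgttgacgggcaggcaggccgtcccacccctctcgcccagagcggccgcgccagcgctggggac
EPHA4 promoter, chr2:221574203-221574452 (minus strand): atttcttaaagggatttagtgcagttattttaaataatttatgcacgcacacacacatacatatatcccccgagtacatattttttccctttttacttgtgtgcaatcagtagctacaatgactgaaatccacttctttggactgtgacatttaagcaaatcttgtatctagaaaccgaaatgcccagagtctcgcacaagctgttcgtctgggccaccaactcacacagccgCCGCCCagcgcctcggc
EFNB2 promoter, chr13:106535663-106535912 (minus strand): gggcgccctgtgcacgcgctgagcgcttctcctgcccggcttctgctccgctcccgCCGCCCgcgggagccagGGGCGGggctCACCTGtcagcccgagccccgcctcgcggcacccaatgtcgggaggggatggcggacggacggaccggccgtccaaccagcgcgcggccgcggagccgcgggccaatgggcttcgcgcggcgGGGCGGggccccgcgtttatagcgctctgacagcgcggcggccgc
The letters searched were CTTTGA (TCF/LEF core), GGGCGG (GC box), TGANTCA (AP-1), CCGGAAG (ETS), CAGGTG (SNAIL/ZEB E-box) and GCGNGGGCG (EGR1), of which the GC box and EGR1 can overlap. The capitals are GC boxes, except the EGR1 match, the first run in EPHB2, and the E-boxes, the last run in EPHB2 and the third in EFNB2. A GC box was in the windows of all 10 genes, and in 42.6% of 35116 RefSeq promoters. The RefSeq start of EPHB6 lies 7695 bases, and that of EFNA1 416 bases, from the GENCODE 29 gene start, so their windows describe other sequence than that before the GENCODE start. The TCF/LEF core was in 1 of the 10, EPHA2 (11.2% of all), and in neither EPHB2 nor EPHB3. E-box matches were in EPHA1, EPHB2 and EFNB2 (17.5% of all), EGR1 matches in EPHA1, EPHB2 and EFNA1 (8.41%), and the AP-1 and ETS letters (6.57% and 8.52%) in none of the 10. EPHB2 and EFNB2, which moved in opposite directions, had the most GC and CpG of the 10, with 84.8% GC and 41 CpG, and 78.4% and 40. EPHA4 had 43.2% and 9, and EPHB3 70.0% and 21, beside medians of 58.0% and 11 over all promoters. A match is a description of letters and not of a bound site.

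Among the B receptors, EPHB2 and EPHB3 rose at both RNA levels. EPHB2 (ENSG00000133216, chromosome 1, 22710839 to 22921500, plus strand, hg38 with GENCODE 29) is the crypt-base receptor for B ephrins. Its nascent RNA stood at 54.0, 50.5 and 50.0 CPM in Ctrl replicates 1 to 3 and 115, 132 and 112 CPM in KO. Its steady-state RNA stood at 14.0, 11.6 and 13.9 CPM in Ctrl and 40.0, 41.1 and 41.7 CPM in KO. Every KO library lay above every Ctrl library in both assays, by 2.32-fold on average in nascent RNA (log2 1.21 ± 0.11, adjusted p = 0.00159) and 3.10-fold in steady-state RNA (1.63 ± 0.07, adjusted p = 1.32e-09). The steady-state rise was the largest of the 10. Under spike-in scaling the nascent change was 1.41 with adjusted p = 0.0746.

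EPHB3 (ENSG00000182580, chromosome 3, 184561784 to 184582409, plus strand), which acts with EPHB2 in crypts, stood at 8.59, 8.62 and 6.55 CPM in nascent RNA of Ctrl and 17.6, 25.8 and 14.0 CPM in KO. In RNA-seq it stood at 7.19, 5.91 and 5.70 CPM in Ctrl and 12.2, 12.3 and 11.9 CPM in KO. The groups did not overlap in either assay, and KO replicate 2 was far above the other KO libraries in nascent RNA alone. The log2 changes were 1.27 ± 0.25 (adjusted p = 0.0174) and 0.95 ± 0.09 (adjusted p = 2.44e-06), a 2.42-fold and a 1.93-fold rise. The nascent call was lost without Ctrl replicate 1, 2 or 3 or KO replicate 1 (log2 1.09 to 1.33, adjusted p = 0.0589 to 0.0761). Without KO replicate 2 it was kept, at a log2 change of 0.93. That was the smallest nascent change with a library left out, and near the steady-state change of 0.95.

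EPHB4, the B receptor that prefers ephrin-B2 and is best known from veins, fell by 0.34 ± 0.05 in steady-state RNA, from 141, 133 and 139 CPM to 107, 110.4 and 109 CPM (adjusted p = 0.000164). In nascent RNA it stood at 72.4, 85.1 and 67.1 CPM in Ctrl and 56.8, 95.6 and 47.8 CPM in KO, where KO replicate 2 lay above and replicates 1 and 3 below every Ctrl library. Its nascent log2 change of −0.17 ± 0.27 (adjusted p = 0.712) became −0.59 (adjusted p = 0.00908) without KO replicate 2 and 0.025 without KO replicate 3. SLC12A9 overlaps 2.81% of the EPHB4 span on the other strand, and the strand setting of the counting is not given. SLC12A9 held 17081 counts in 4sU-seq and 7309 in RNA-seq, beside 37520 and 26209 of EPHB4. The part of its reads in the EPHB4 values was not tested. EPHB6, a receptor whose kinase domain is inactive, rose in steady-state RNA from 4.44, 3.91 and 4.02 CPM to 6.93, 6.75 and 6.46 CPM (0.70 ± 0.10, adjusted p = 5.46e-05). Its nascent RNA stood at 4.40, 5.04 and 4.14 CPM in Ctrl and 6.04, 9.57 and 4.89 CPM in KO, with overlapping groups (0.59 ± 0.26, adjusted p = 0.165). Without KO replicate 2 that change was 0.20 (adjusted p = 0.247). The tables list EPHB6 under ENSG00000275482, an ID outside GENCODE 29, so its position (chromosome 7, 142855061 to 142871094, plus strand) is that of the GENCODE gene with its symbol.

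**Figure D2:**
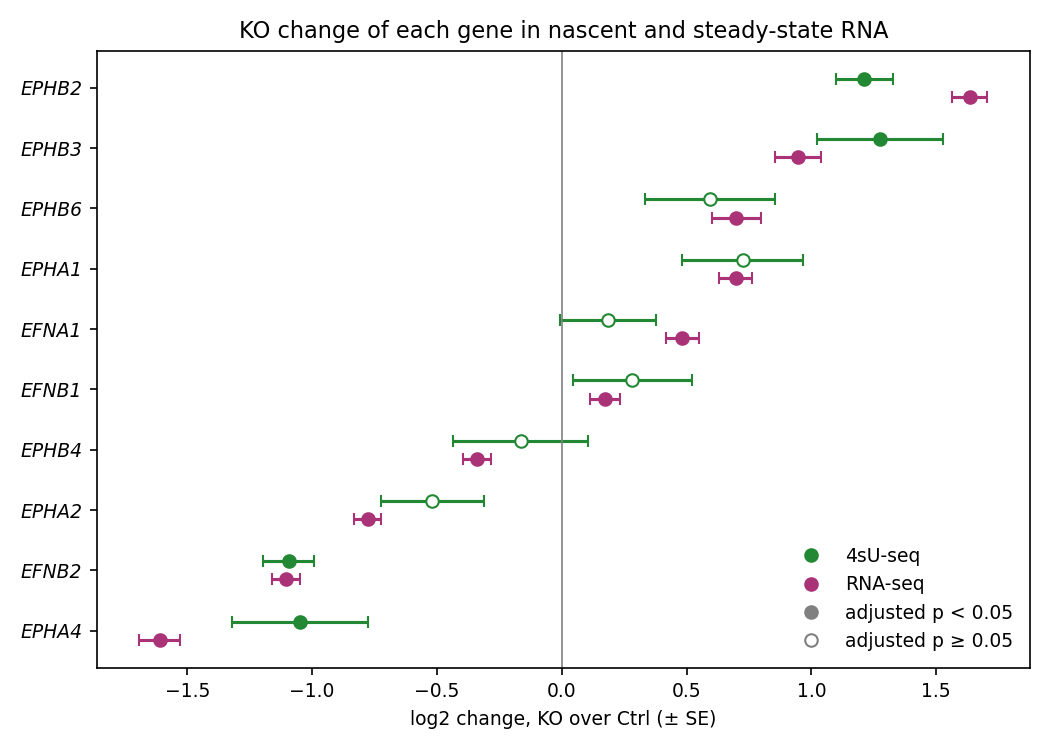
Log2 change, KO over Ctrl (x axis), of each of the 10 genes in 4sU-seq (green) and RNA-seq (purple), with bars of ± 1 standard error and filled points for an adjusted p under 0.05. EPHB2 and EPHB3 lie to the right and EPHA4 and EFNB2 to the left with filled points in both assays, and the other 6 genes are filled in RNA-seq only.

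The A receptors moved in both directions. EPHA4 (ENSG00000116106, chromosome 2, 221418027 to 221574202, minus strand), the receptor that takes ligands of both classes, fell most of the 10 in steady-state RNA. There it stood at 15.8, 13.9 and 14.7 CPM in Ctrl and 4.80, 4.95 and 4.81 CPM in KO, a 3.05-fold lower level (log2 −1.61 ± 0.08, adjusted p = 5.47e-09). In nascent RNA it stood at 43.3, 37.0 and 53.2 CPM in Ctrl and 24.0, 13.9 and 26.7 CPM in KO (−1.05 ± 0.27, adjusted p = 0.0410). All KO libraries were below all Ctrl libraries in both assays. The nascent call was lost without any 1 of Ctrl replicates 1, 2 and 3 and KO replicates 1 and 3 (log2 −1.23 to −0.96, adjusted p = 0.0517 to 0.124). It was also lost under spike-in scaling (−0.73, adjusted p = 0.602). Without KO replicate 2 it was kept, at −0.88, the smallest log2 change with a library left out.

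EPHA2, a receptor often high in carcinoma cells, fell in steady-state RNA from 251, 236 and 244 CPM to 143, 146 and 138 CPM (−0.78 ± 0.05, adjusted p = 1.1e-07). In nascent RNA it stood at 261, 288 and 230.5 CPM in Ctrl and 164, 238 and 142 CPM in KO, and only KO replicate 2 reached the Ctrl range. Its change of −0.52 ± 0.21 (adjusted p = 0.132) became −0.83 (adjusted p = 0.00147) without that library. EPHA1, an A-class receptor of epithelia, rose in steady-state RNA from 18.1, 16.4 and 18.3 CPM to 26.8, 28.6 and 30.3 CPM (0.70 ± 0.07, adjusted p = 2.19e-06). In nascent RNA it stood at 16.6, 18.5 and 14.7 CPM in Ctrl and 24.2, 37.5 and 20.5 CPM in KO, with no overlap (0.72 ± 0.24, adjusted p = 0.0857). Without KO replicate 2 that change was 0.36 with adjusted p = 0.0472. The strand setting of the counting is not given, and EPHA1-AS1 overlaps 5.81% of the EPHA1 span on the other strand. EPHA1-AS1 held 694 counts over the 6 libraries of 4sU-seq, beside 11693 of EPHA1, and its own change was 0.76 ± 0.22 (adjusted p = 0.0573). ZYX, which encodes the focal adhesion protein zyxin, overlaps 4.42% of the span, also on the other strand. It held more counts than EPHA1, 28512 in 4sU-seq and 35342 in RNA-seq, where EPHA1 held 4919. The part of either gene's reads in the EPHA1 values was not tested.

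Of the ephrins, EFNB2 fell at both RNA levels while EFNA1 and EFNB1 rose in steady-state RNA. EFNB2 (ENSG00000125266, chromosome 13, 106489731 to 106535662, minus strand) encodes ephrin-B2, a ligand of EPHB4, EPHA4 and other B receptors. It stood at 168, 159 and 168 CPM in nascent RNA of Ctrl and 80.9, 70.9 and 80.2 CPM in KO. In steady-state RNA it stood at 69.9, 65.8 and 71.4 CPM in Ctrl and 31.4, 31.6 and 33.3 CPM in KO. The 6 KO values were all below the Ctrl values of their assay, and the changes were of like size, 2.13-fold and 2.15-fold lower (log2 −1.09 ± 0.10, adjusted p = 0.00160, and −1.11 ± 0.06, adjusted p = 6.44e-09). Spike-in scaling gave −0.84 with adjusted p = 0.386 in nascent RNA. The annotated antisense gene AL138689.2 overlaps 66.4% of the EFNB2 span, and its reads were not analysed here.

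EFNA1, a ligand of EPHA2 and EPHA1, rose in steady-state RNA from 13.9, 13.5 and 14.7 CPM to 18.6, 20.8 and 19.4 CPM (0.48 ± 0.07, adjusted p = 4.9e-05). In nascent RNA it stood at 15.0, 16.6 and 14.6 CPM in Ctrl and 16.2, 22.4 and 14.1 CPM in KO, with KO replicates 1 and 3 within or below the Ctrl range (0.19 ± 0.19, adjusted p = 0.549). EFNB1, the B ephrin encoded on the X chromosome, had the smallest steady-state change of the 10. It stood at 39.8, 36.9 and 42.6 CPM in RNA-seq of Ctrl and 44.2, 44.7 and 45.7 CPM in KO (0.17 ± 0.06, adjusted p = 0.0283). That call was lost when KO replicate 1, 2 or 3 was left out (adjusted p = 0.0741 to 0.116), when KO replicates 1 and 2 were summed (0.0849, with 40.8% of all genes called) and under spike-in scaling (0.0562). In nascent RNA EFNB1 stood at 22.4, 26.2 and 20.7 CPM in Ctrl and 25.0, 38.3 and 21.1 CPM in KO, with overlapping groups (0.28 ± 0.24, adjusted p = 0.459). Without KO replicate 2 the nascent changes of EFNA1 and EFNB1 were −0.098 and −0.074.

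**Figure D3:**
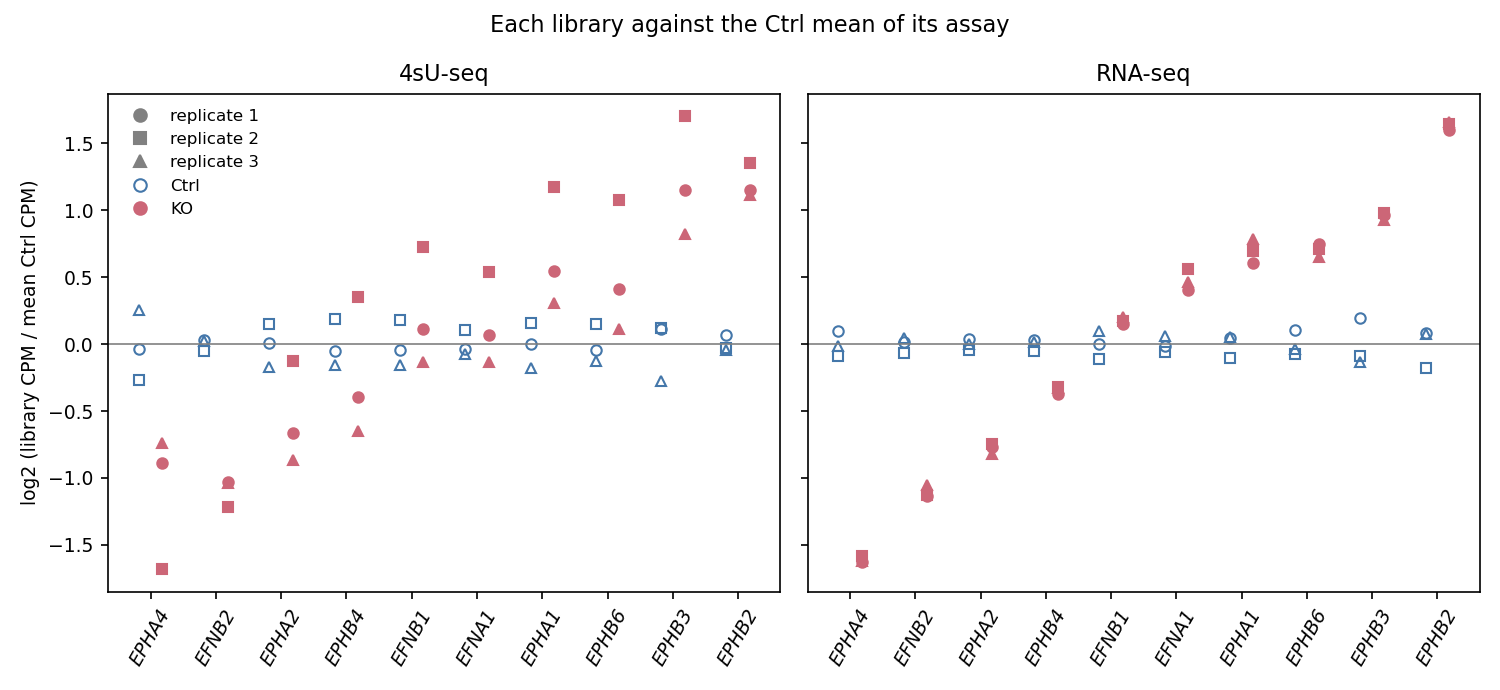
Log2 of each library's CPM over the mean Ctrl CPM of its assay (y axis) for the 10 genes, 4sU-seq at left and RNA-seq at right, with Ctrl open, KO filled and the replicate number as marker shape. The KO points lie close together in RNA-seq (median coefficient of variation 2.45% over the 10 genes) and wide apart in 4sU-seq (31.5%), where the square, KO replicate 2, is at one end for each gene.

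By the median, the 10 genes varied more between libraries in 4sU-seq than in RNA-seq, most of all in KO. In Ctrl, EPHB2 and EFNB2 went the other way, varying less in 4sU-seq relative to their means. The median coefficient of variation of the 10 genes was 11.3% in Ctrl and 31.5% in KO of 4sU-seq. It was 6.26% and 2.45% in RNA-seq. Of the 10 genes, EFNB2 varied least among the 4sU-seq KO libraries and EPHB4 most (7.24% and 38.0%). Without KO replicate 2, 7 of the 10 were called in nascent RNA, 3 higher (EPHA1, EPHB2 and EPHB3) and 4 lower (EPHA2, EPHA4, EPHB4 and EFNB2), where 53.8% of 21686 genes were called.

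Whether the KO change differed between nascent and steady-state RNA was tested over all 12 libraries as the interaction of genotype and assay (edgeR). None of the 10 was called, where 2.14% of 15863 genes were, and 1 had an unadjusted p under 0.05 (15.9% of all). That gene was EPHB2, which rose less in nascent RNA by 0.42 ± 0.14 on the log2 scale (adjusted p = 0.153). EPHA4 had the largest difference, 0.56 ± 0.30 (adjusted p = 0.407), its nascent fall being the smaller. For EFNB2 the difference was 0.011 ± 0.11. Without 4sU-seq KO replicate 2, 4 of the 10 were called, where 32.1% of 15885 genes were: EPHA4 (0.73, adjusted p = 0.0109), EPHB2 (−0.57, adjusted p = 0.00385), EPHB6 (−0.50, adjusted p = 0.0362) and EFNA1 (−0.58, adjusted p = 0.00541). Directions over all genes moved with scaling here too: 52.1% of the calls had the higher change in nascent RNA, against 38.2% with DESeq2 size factors, 29.7% with library size alone and 71.4% of 7 calls with spike-in scaling.

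Levels of different genes were compared in RNA-seq as RPKM, the CPM per kilobase of exon (the union of GENCODE 29 exons, which may hold exons these cells do not use). In Ctrl the order was EPHA2 (58.6 ± 1.78 RPKM, mean ± SD, n = 3), EPHB4 (21.4 ± 0.672), EFNB2 (13.8 ± 0.570), EFNB1 (11.1 to 12.9 over the 3 libraries), EFNA1 (5.53 ± 0.230), EPHA1 (3.72 ± 0.222), EPHA4 (1.96 ± 0.129), EPHB3 (1.38 ± 0.178), EPHB2 (1.05 ± 0.107) and EPHB6 (0.774 ± 0.0521). No neighbours in that order overlapped in their 3 libraries. In KO the first were again EPHA2 (34.2 ± 0.941 RPKM) and EPHB4 (16.9 ± 0.310), followed by EFNB1 (13.5 ± 0.238) and EFNA1 (7.72 ± 0.428). EFNB2 (6.39 ± 0.208) and EPHA1 (6.03 ± 0.372) overlapped in KO. EPHB2 (3.27 ± 0.0701 RPKM) then stood above EPHB3 (2.68 ± 0.0505) and EPHB6 (1.26 ± 0.0443), and EPHA4 was last (0.643 ± 0.0110). EPHA4 thus stood above EPHB2, EPHB3 and EPHB6 in Ctrl and below all of them in KO.

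**Figure D4:**
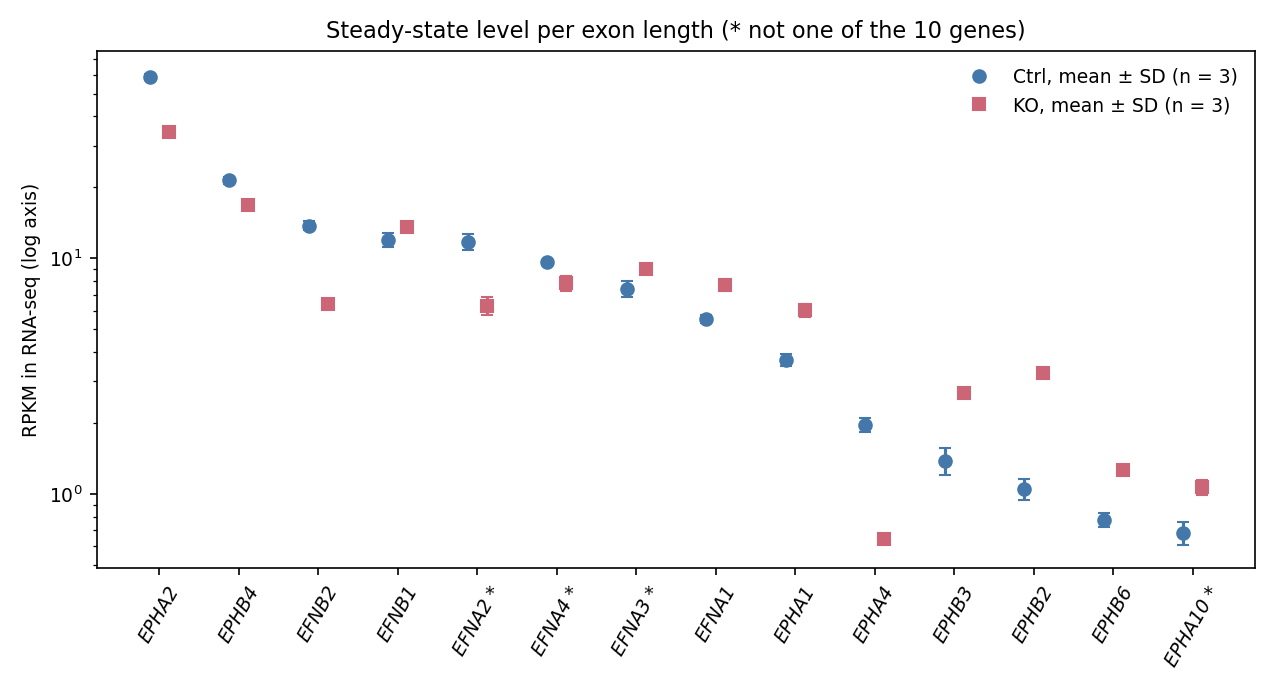
RPKM in RNA-seq (y axis, log scale) of the 10 genes and of 4 further family members (asterisks), mean ± SD (n = 3) for Ctrl (blue circles) and KO (red squares), ordered by the Ctrl level. EPHA2 and EPHB4 lead in both groups, EPHA4 goes from 1.96 to 0.643 RPKM, and EPHB2 from 1.05 to 3.27 RPKM.

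The ratio between the assays also varied among the 10 genes. In Ctrl the CPM in 4sU-seq over that in RNA-seq, as log2 with 0.5 CPM added to each, was 1.93 for EPHB2, 1.55 for EPHA4 and 1.25 for EFNB2, beside a median of 0.19 over all genes tested in both assays. EPHB4 and EFNB1 were at the other end, at −0.87 and −0.77. Which features and strand were counted in each table is unknown here and may differ between them, so the ratio is not a share of nascent RNA.

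The other 12 Eph receptors and ephrins in the tables were mostly low. In nascent RNA 10 were tested, of which EPHB1 and EPHA8 rose and EFNA2 fell (19.6% of all genes tested were called). In steady-state RNA 6 were tested and all were called (48.4% of all genes), with EPHB1, EPHA10, EFNA3 and EFNA5 higher and EFNA2 and EFNA4 lower. EPHB1, a further B receptor, stood at 5.22, 4.55 and 5.42 CPM in nascent RNA of Ctrl and 21.2, 14.8 and 18.8 CPM in KO (1.85 ± 0.17, adjusted p = 0.00160). In RNA-seq it held 3, 5 and 3 counts in Ctrl and 23, 17 and 21 in KO (adjusted p = 0.000120), at or near the floor in Ctrl. The antisense gene RP11-657O9.1 overlaps 18.4% of the EPHB1 span and held 1499 counts in 4sU-seq, beside 6311 of EPHB1. The part of its reads in the EPHB1 values was not tested. EPHA8, which lies 107.244 kb from EPHB2 on chromosome 1, rose in nascent RNA from 0.403, 0.314 and 0.389 CPM to 1.24, 1.33 and 0.951 CPM (1.66 ± 0.20, adjusted p = 0.00331). Its RNA-seq counts, 2, 0 and 0 in Ctrl and 12, 6 and 8 in KO, were too low to be tested.

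The A ephrin EFNA2 fell alike in both assays (−0.93 ± 0.25, adjusted p = 0.0458, and −0.90 ± 0.09, adjusted p = 4.05e-06), from 12.1, 11.0 and 10.3 CPM to 5.43, 6.05 and 6.46 CPM in RNA-seq. EPHA10, like EPHB6 a receptor with an inactive kinase domain, rose by 0.64 ± 0.10 in steady-state RNA (adjusted p = 0.000145) and was not called in nascent RNA (0.21 ± 0.14, adjusted p = 0.327). In steady-state RNA EFNA5 rose by 1.54 ± 0.27 (adjusted p = 0.000412) at under 1 CPM, and EFNA3 by 0.28 ± 0.07 (adjusted p = 0.00427). Neither was called in nascent RNA, where groups overlapped (1.08 ± 0.55, adjusted p = 0.222, and 0.41 ± 0.34, adjusted p = 0.444). The nascent means of EFNA5 were 3.02 CPM in Ctrl and 6.37 CPM in KO. EPHA3, EPHA5, EPHA6, EPHA7 and EFNB3 were under 1 CPM in both assays, and none was called in nascent RNA where tested. None of 5 differed between assays by the interaction test at the adjusted threshold (1, EPHA10, at an unadjusted p under 0.05).

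EFNA4, EFNA3 and EFNA1 lie close together, in this order, on the plus strand of chromosome 1, with gaps of 9.318 and 39.921 kb. EFNA4 held 2344 counts over the 6 RNA-seq libraries, where it fell by 0.30 ± 0.08 (adjusted p = 0.00533), but 4 counts over the 6 libraries of 4sU-seq. RP11-540D14.8, annotated on the same strand, overlaps 99.7% of the EFNA4 span and 91.6% of that of EFNA3. It held 1316 counts in 4sU-seq, where it rose by 0.74 ± 0.17 (adjusted p = 0.0263), and 0 in RNA-seq. How reads of overlapping genes were counted in each table is not given in the sources used here, and its part in these values was not tested. No GENCODE 29 gene overlaps EFNA1.

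Genes that act with Eph receptors and ephrins (44 listed, 42 in the tables) were split in direction. Of 40 tested in nascent RNA, 6 rose and 1 fell, where 12.6% of all genes tested rose and 6.98% fell. In steady-state RNA 12 of 39 rose and 17 fell, where 21.5% of all genes rose and 26.8% fell. Their median log2 changes were 0.19 and −0.12, beside 0.050 and 0.0014 over all genes. KALRN, a guanine nucleotide exchange factor that acts downstream of EphB receptors in neurons, rose most in nascent RNA among those named, by 1.93 ± 0.17 in nascent RNA (adjusted p = 0.00141) and 1.99 ± 0.12 in steady-state RNA (adjusted p = 2.94e-08). CHN2, a chimaerin that switches off RAC, rose by 1.79 ± 0.27 and 2.20 ± 0.19, at a steady-state level of 0.609 ± 0.0619 CPM in Ctrl and 2.83 ± 0.386 in KO (mean ± SD). Of the SRC family, FYN rose by 1.25 ± 0.21 in nascent RNA (adjusted p = 0.0103) and 0.31 ± 0.08 in steady-state RNA (adjusted p = 0.00760). The adaptor TNS1 and SDCBP, which encodes syntenin, a partner of the B ephrin tail, rose in both assays, by 0.63 ± 0.11 and 0.51 ± 0.06 and by 0.72 ± 0.14 and 0.50 ± 0.10.

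RGS3, a regulator of G protein signalling that binds B ephrins, fell in both assays (−0.73 ± 0.08, adjusted p = 0.00314, and −0.61 ± 0.06, adjusted p = 2.4e-06). The adaptor GRB7 rose in nascent RNA by 1.43 ± 0.29 (adjusted p = 0.0189). INPPL1, which encodes the EPHA2-binding phosphatase SHIP2, and GRB7 rose in steady-state RNA by 0.85 ± 0.06 and 0.81 ± 0.09. PTPN1, a phosphatase of receptor tyrosine kinases, the adaptor GRB10, and the cytoskeletal regulators ROCK2 and RAC1 fell there, with log2 changes of −0.53 ± 0.06, −0.53 ± 0.06, −0.47 ± 0.05 and −0.40 ± 0.05. GRB10 was the 1 gene of 38 in this list whose change differed between assays, by 0.82 ± 0.12 (adjusted p = 0.00810), with 207 ± 5.97 CPM in Ctrl and 254 ± 24.2 in KO in nascent RNA and 46.4 ± 1.04 against 32.2 ± 1.91 in RNA-seq (mean ± SD).

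Other targets of WNT and beta-catenin did not all move with EPHB2 and EPHB3. Of 18 listed, 3 of 15 tested rose and 1 fell in nascent RNA, and 6 of 14 rose and 6 fell in steady-state RNA, with medians of 0.15 and 0.017. Over all genes tested, 12.6% rose and 6.98% fell in nascent RNA, and 21.5% and 26.8% in steady-state RNA. The WNT inhibitor DKK1, the receptor TNFRSF19 and the ubiquitin ligase RNF43 rose in both, by 1.08 ± 0.14, 1.28 ± 0.20 and 0.57 ± 0.11 in nascent and 0.38 ± 0.07, 1.27 ± 0.20 and 0.55 ± 0.07 in steady-state RNA. The feedback inhibitors NOTUM and NKD1 rose in steady-state RNA (0.45 ± 0.10 and 0.34 ± 0.07). The transcription factor gene SOX4 fell in both (−1.16 ± 0.15 and −1.49 ± 0.07). SOX9, CCND1, MYC and CD44 fell in steady-state RNA, with log2 changes of −1.08 ± 0.06, −0.62 ± 0.06, −0.54 ± 0.06 and −0.42 ± 0.05. CD44 was the 1 of 13 whose change differed between assays (0.50 ± 0.09, adjusted p = 0.0237). SOX9 held no count in 4sU-seq and could not be tested there, though its RNA-seq means were 129 CPM in Ctrl and 61.0 CPM in KO. Which features were counted in each table is not given, and their part in this was not tested.

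The genes most like each of the 4 genes called in both assays were found by Pearson correlation over the 12 libraries, each assay centred on its own mean, among 9896 genes. The libraries of a group share their genotype, so these values are descriptions. For EPHB2 they were RAMP1 (r = 0.999) and CTSH (0.995), for EPHB3 TRIOBP (0.993) and ZNF641 (0.992), for EPHA4 PDE4B (0.997) and TIPARP (0.996), and for EFNB2 CDR2 (0.996) and UTP6 (0.995). RAMP1, nearest to EPHB2, rose by 1.41 in nascent and 1.88 in steady-state RNA, and PDE4B, nearest to EPHA4, changed by −1.16 and −1.67.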

How the data were processed

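The authors deposited raw gene counts, 1 table per assay, each with 56104 gene IDs and 92 ERCC spike-in sequences. The submitters' processing notes list the build hg38 and the tools HISAT2 2.1.0, SAMtools 1.3, featureCounts and FastQC 0.11.2. Annotation, counting feature and strand setting are not given there. No column of per-sample values was left unmapped (0). Symbols are those of the tables. Coordinates, overlaps and exon lengths came from GENCODE 29, which matched 52890 IDs (94.3%), and promoters from RefSeq on GRCh38.p14, which held all 10 genes. 

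Spike-in counts (4sU-seq: 0.0230 to 0.0560% of gene counts per library, RNA-seq: 0.475 to 0.581%) were left out of library sizes. Each assay was fitted alone with edgeR 4.0.16 in R 4.3.3 (filterByExpr with a minimum count of 10, TMM, quasi-likelihood F test, two-sided, Benjamini-Hochberg adjustment over all genes tested, threshold 0.05). The difference between assays was the interaction of genotype and assay over 12 libraries. Standard errors were taken as the absolute log2 change over the root of the F statistic. The fits were also run on simulated counts with planted changes, drawn independently for each library. Those counts held no library set apart like 4sU-seq KO replicate 2, so they cannot speak to its effect on the calls.

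Named genes are PPM1G, the 10 genes and other family members kept by the filter. Named too are up to 5 called partners and WNT targets with the smallest p per direction and assay. The 2 protein-coding genes most like each gene called in both assays (mean log2 CPM of at least 2) and some overlapping genes complete them. Further overlapping genes, not named, are annotated at EPHA2, EPHA4, EPHB2, EPHB4 and EFNB2. Family members under the filter were added to account for the list. The members and lists were chosen with earlier results of these data known. Alternatives were DESeq2 (1.42.0) size factors and Wald test, spike-in scaling, library size alone, no filter, a replicate block, a fit with the trend over gene span removed, RNA-seq KO replicates 1 and 2 summed, and leaving out each library.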

Additional observations from a re-analysis of the deposited data

How the results depend on the processing

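For the 10 genes, 125 of 130 alternative values in RNA-seq, 107 of 129 in 4sU-seq and 160 of 189 for the difference between assays kept their direction and their side of the threshold. EPHB6 has no value with the span trend removed, since its ID has no span in GENCODE 29. In 4sU-seq, from 4166 genes and 4 of the 10, spike-in scaling left 716 and 1, and leaving out each library in turn gave 1322 to 11673 and 2 to 7, with the highest of both without KO replicate 2. In RNA-seq leaving out each library gave 8145 to 10151 genes and 9 to 10 of the 10. For the difference between assays, 340 genes became 7 under spike-in scaling, 185 with no filter, 105 with RNA-seq KO replicates 1 and 2 summed, 611 with the span trend removed and 90 to 5095 when a library was left out, with 0 to 4 of the 10. PPM1G in 4sU-seq changed by −0.93 under spike-in scaling (adjusted p = 0.196), and its difference between assays, 0.60, was 0.63 with the span trend removed (adjusted p = 0.0444) and 0.34 to 0.70 when a library was left out. Near 0, signs turned: the difference of EPHA1 was −0.032 with DESeq2 size factors, −0.064 with library size alone and −0.065 with no filter, and that of EFNB2 −0.046, −0.084 and −0.078. With a library left out, differences ran from −0.34 to 0.20 (EPHA1), −0.055 to 0.41 (EPHA2), −0.022 to 0.50 (EPHB3), −0.25 to 0.36 (EPHB4), −0.50 to 0.081 (EPHB6), −0.25 to 0.28 (EFNB1) and −0.043 to 0.047 (EFNB2). The 4sU-seq changes ran from −0.098 to 0.32 (EFNA1), −0.074 to 0.45 (EFNB1) and −0.59 to 0.025 (EPHB4). With the span trend removed EPHA1 was called in 4sU-seq (0.71, adjusted p = 0.0332). Without these libraries fewer samples were fitted; other causes were not tested. Depth limits EPHB1 and EPHA8 in RNA-seq.

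Whether the replicate numbers pair the samples was not settled, and the block was kept as an alternative. For 4sU-seq, deviations of Ctrl and KO replicate 2 correlated at 0.71, those of replicate 3 at 0.70 and those of replicate 1 at −0.07. Ctrl and KO libraries with different numbers ran there from −0.72 to 0.59. For RNA-seq the values were low: same-numbered libraries gave −0.04, 0.16 and 0.23, and the other pairs lay between −0.29 and 0.18. With the replicate block, 6907 genes and 7 of the 10 were called in 4sU-seq, adding EPHA1 (adjusted p = 0.0144), EPHA2 (0.0148) and EPHB6 (0.0458), and 663 genes for the difference between assays. Under the block the difference was 0.58 for PPM1G (adjusted p = 0.0351) and −0.013 for EPHA1.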
